A study of Homo sapiens with 18 samples.

Results

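Homologous recombination and the Fanconi anemia pathway were followed as a list of 34 genes in PANC-1 cells, a human cell line from a pancreatic ductal carcinoma. The genes were listed by name and matched by symbol to Ensembl identifiers, and the list was made with earlier results of these data known. All 34 are among the 58302 genes of the expression table. Cells carrying a lentiviral shRNA against NAT10 (shNAT10) were compared with cells carrying a control shRNA vector (shCtrl), both kept as stable lines in the same parental line. The control is an empty vector per the labels, while the study's methods list a non-targeting shRNA. RNA-seq was made from 3 libraries per group. In acRIP-seq, RNA fragments were pulled down with an antibody against N4-acetylcytidine (ac4C), the RNA mark that NAT10 writes, and 1 list of peaks was deposited for each group, made from 3 IP and 3 input libraries. The sources used here do not say whether replicates were separate cultures, so p-values measure the spread between libraries, which may be technical.

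Homologous recombination repairs a broken chromosome by copying the intact sister. The broken ends are first cut back to single strands by nucleases and helicases, BRCA1 with BARD1 licenses the step, and BRCA2 with PALB2 then acts on the single strands, helped by RAD51B, RAD51C, RAD51D, XRCC2 and XRCC3. The Fanconi anemia genes act on crosslinks between the DNA strands. A core complex of FANC proteins with the ubiquitin-conjugating enzyme UBE2T attaches ubiquitin to the pair FANCD2 and FANCI, and this marks the lesion for repair. The kinases ATM and ATR, with their targets CHEK2 and CHEK1, halt the cell cycle meanwhile. Inherited defects in BRCA2, PALB2 and ATM are known to raise the risk of pancreatic cancer.

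Expression is given in FPKM, reads scaled by transcript length and library size, as the authors deposited it. The steps between FPKM values fit a scaling to between 15831695 and 23521693 reads in a library, which is an inferred figure. The control library shCtrl replicate 2 stood apart from the other shCtrl libraries. Among genes tested, the fifth with the lowest GC content lay 0.24 lower in it on the log2 scale than in the other shCtrl libraries, and the fifth with the highest GC content lay 0.28 higher. The library also differed by transcript length. Genes with the longest transcripts, from 5619 bases up, lay 0.31 lower in it than in the other shCtrl libraries. A group of the same size with the shortest transcripts lay 0.31 higher. Which of GC content and length goes with the gap was not tested. Of the 32 genes of the list that were tested, 20 were lower in it than in both other shCtrl libraries. BRCA2, an AT-rich gene, measured 2.96, 1.204 and 2.09 FPKM in shCtrl replicates 1, 2 and 3. ATM measured 17.98, 8.998 and 14.8 FPKM in the same order. BRCA2 and ATM also have the longest transcripts of the list, with 11986 and 13147 bases. The 13 tested genes of the list with a GC content under 40.8% reached a median of 0.664 of the mean of the other shCtrl libraries, against 0.968 for the other 19. Among these 13, UBE2T and FANCL, with short transcripts of 1499 and 1698 bases, reached 1.233 and 1.005. FANCB and RAD54B, with 3040 and 3068 bases, reached 0.5822 and 0.5581. Values without that library are given beside many of the results that moved with it. Among the ductal keratins, KRT8 stood at 1739 FPKM ± 239 (SD, n = 3), KRT18 at 1131 and KRT19 at 306 FPKM in shCtrl. KRT7 was far lower, at 8.62 FPKM, as was the ductal marker EPCAM at 4.87 FPKM. All 7 ductal markers passed the filter. Most markers of other cell types were low. The fibroblast marker COL1A1 was not, at 31.1 FPKM in shCtrl, and the leukocyte marker CD14 measured 2.53 FPKM there. In every library, 4 of 5 fibroblast, 4 of 5 leukocyte, 2 of 4 endothelial and 5 of 5 Schwann cell and neuron markers stayed under 0.1 FPKM.

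**Figure D1:**
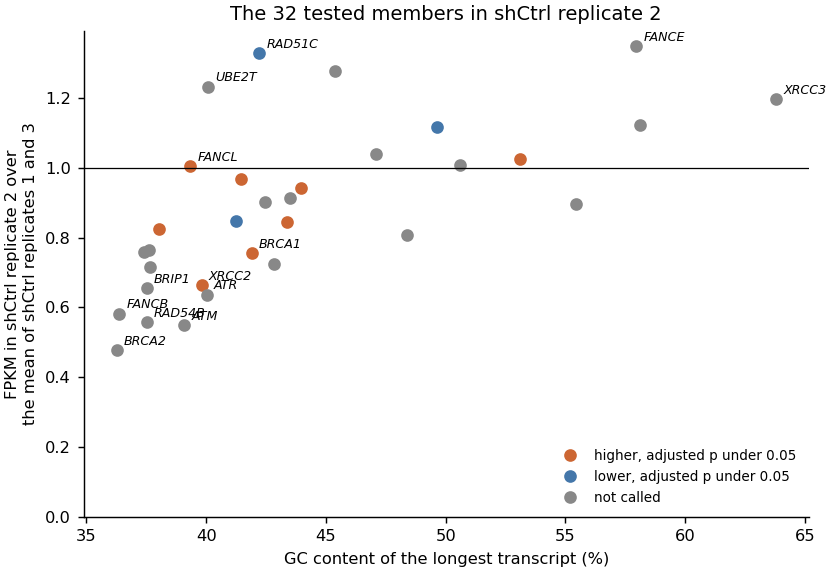
FPKM of the 32 tested genes in shCtrl replicate 2 divided by their mean in shCtrl replicates 1 and 3, against the GC content of the longest transcript, 1 point per gene, coloured by the call. The AT-rich genes at the left, with BRCA2 lowest at 0.477, lie mostly below the line at 1.

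The targeted gene NAT10 checks the labels. NAT10 measured 31.6, 27.7 and 28.6 FPKM in the shCtrl libraries and 7.92, 8.43 and 7.90 FPKM in the shNAT10 libraries. The groups did not overlap, and NAT10 fell by 1.84 on the log2 scale (SE 0.08, limma adjusted p = 3.85e-05). An exact two-sided permutation test of its 6 values gave p = 0.1, the smallest p that 3 against 3 libraries allow.

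Of the 32 genes tested, 8 rose and 3 fell in shNAT10 cells at a limma adjusted p under 0.05, and 21 did not pass. FANCI, RAD54L, BRCA1, XRCC2, FANCD2, BARD1, CHEK1 and FANCL were higher, while RAD51C, CHEK2 and BLM were lower. None passed a log2 fold change of 1, which 6.48% of all genes tested passed in either direction. These shares are near or below the background, and the counts are no result about the list: 25.0% of the tested genes of the list rose against 20.8% of all 12982 genes tested, and 9.38% fell against 21.2%. The median log2 fold change of the list was 0.21, beside -0.01 over all genes tested. Without shCtrl replicate 2 these medians were 0.12 and -0.009, so the value of the list moved with that library. All shNAT10 values lay above all shCtrl values for 10 of the 32 genes, where 27.9% of all genes did so, and below them for 6, where 28.6% of all genes did so. Scaled to TPM, where every library has the same sum, the median over all genes moved by 0.11. With TPM, 10 genes of the list were called higher and 2 lower, and 3355 of all 12982 genes higher and 2075 lower. In a bulk library, more mRNA per cell and more cells in a phase that expresses a gene cannot be told apart. The called genes had between 150 and 3584 reads in a library, as recovered from the FPKM values.

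**Figure D2:**
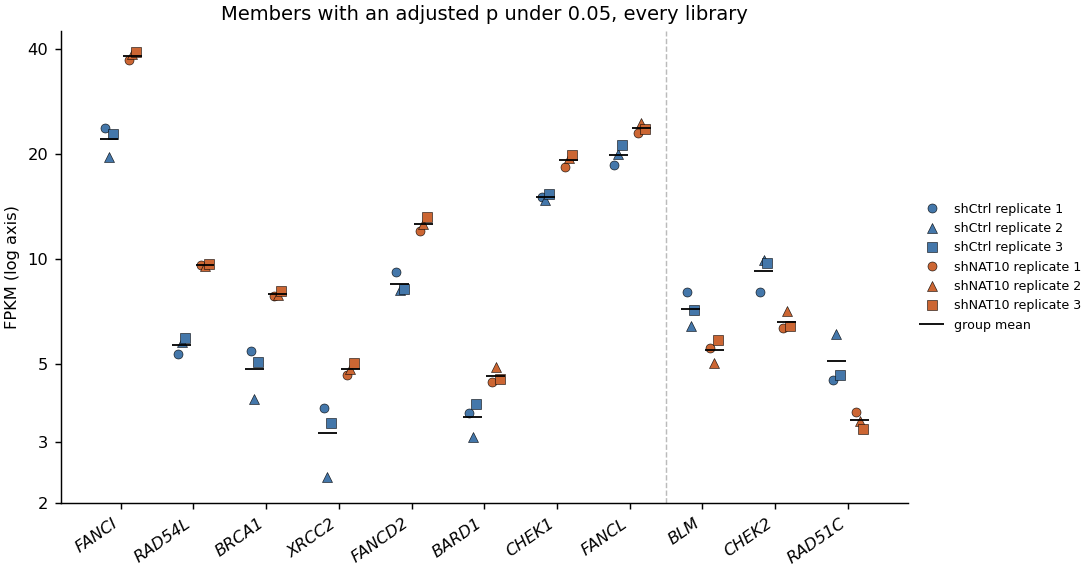
FPKM on a log axis for the 11 genes with an adjusted p under 0.05, with every library as a point and the group mean as a line, the 8 higher genes at the left and the 3 lower genes at the right. The shNAT10 points do not overlap the shCtrl points for any of the 11, and shCtrl replicate 2 (blue triangles) sits lowest of its group for FANCI, BRCA1, XRCC2, FANCD2, BARD1, CHEK1 and BLM.

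Levels per length differed widely over the list. UBE2T stood highest with a mean of 56.3 FPKM over the 6 libraries, followed by FANCI at 30.3, FANCL at 21.9, FANCG at 17.7, CHEK1 at 17.2 and ATM at 15.3 FPKM. The means of FANCG and CHEK1 do not differ beyond the spread of their libraries. BRCA1 at 6.41 and RAD54L at 7.67 FPKM lay in the middle of the order, and RAD51D at 1.53 and RAD54B at 1.05 FPKM were the lowest that were tested.

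In the step of ubiquitin transfer to FANCD2 and FANCI, both substrates rose and the enzyme UBE2T did not pass. FANCI (ENSG00000140525, chr15:89243949-89317261, plus strand, GRCh38) encodes the partner that is clamped to DNA with FANCD2. FANCI measured 23.8, 19.7 and 22.8 FPKM in shCtrl and 37.2, 38.9 and 39.2 FPKM in shNAT10. The 3 shNAT10 libraries were all above the highest shCtrl library, and FANCI rose by 0.80 on the log2 scale (SE 0.09, adjusted p = 6.00e-04), and by 0.72 without shCtrl replicate 2. FANCD2 (chr3:10026414-10101930, plus strand) measured 9.18, 8.19 and 8.23 FPKM in shCtrl and 12.1, 12.7 and 13.2 FPKM in shNAT10. It rose by 0.56 on the log2 scale (SE 0.08, adjusted p = 0.00172). UBE2T, the conjugating enzyme of the step and the most abundant mRNA of the list, measured 44.6, 57.9 and 49.3 FPKM in shCtrl and 58.9, 63.2 and 64.0 FPKM in shNAT10. Its groups did not overlap, but its log2 difference of 0.30 (SE 0.10) did not pass (adjusted p = 0.0514). Without shCtrl replicate 2, where it was highest of the shCtrl libraries, UBE2T had a log2 difference of 0.40 and an adjusted p of 0.00150. That fit was among 7 of the 17 alternatives run under which UBE2T passed.

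Relative to its partner, FANCI was higher in each shNAT10 library than in any shCtrl library, but this did not pass a test. The ratio of FANCI to FANCD2, formed within a library so that its scaling cancels, was 2.60, 2.41 and 2.78 in shCtrl and 3.08, 3.07 and 2.96 in shNAT10. The groups of ratios did not overlap. Of 7 partner ratios formed, an exact two-sided permutation test gave p = 0.1, the smallest that the design allows, for this ratio and for 5 of the 6 others, or 0.117 adjusted over the 7. For RAD51C over XRCC2 and CHEK1 over CHEK2 that value was fixed, since their genes each separated the groups in opposite directions.

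The BRCA1 group held 2 of the 8 rises. BRCA1 (chr17:43044295-43170245, minus strand) measured 5.46, 3.98 and 5.08 FPKM in shCtrl and 7.85, 7.92 and 8.14 FPKM in shNAT10. It rose by 0.72 on the log2 scale (SE 0.12, adjusted p = 0.00380), and by 0.59 without shCtrl replicate 2. BARD1 (chr2:214725646-214809711, minus strand), the obligate partner of BRCA1 in its ubiquitin ligase, measured 3.64, 3.09 and 3.85 FPKM in shCtrl and 4.45, 4.91 and 4.56 FPKM in shNAT10. BARD1 rose by 0.39 on the log2 scale (SE 0.11, adjusted p = 0.0259), and by 0.30 without shCtrl replicate 2 (adjusted p = 0.0233). Its adjusted p went up to 0.0625, 0.0977 and 0.0745 without shNAT10 replicates 1, 2 and 3. BRCA1 over BARD1 was 1.50, 1.29 and 1.32 in shCtrl and 1.77, 1.61 and 1.79 in shNAT10. BRIP1, the helicase bound by BRCA1, had a log2 difference of 0.44 (SE 0.20) that did not pass (adjusted p = 0.115), and passed only without shCtrl replicate 1 (adjusted p = 0.0329) among the libraries left out. Without shCtrl replicate 2 its log2 difference came to 0.25 (adjusted p = 0.192).

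BRCA2 and PALB2, which act together after resection, did not pass. BRCA2 measured 2.83, 2.80 and 3.44 FPKM in shNAT10, within reach of shCtrl replicate 1 at 2.96 FPKM, so the groups overlapped. Its log2 difference was 0.59 (SE 0.30, adjusted p = 0.147). Without shCtrl replicate 2 it came to 0.26 (adjusted p = 0.237), and without shCtrl replicate 1 to 0.88 (adjusted p = 0.0256), so its value moved with the control libraries. PALB2, the bridge between BRCA1 and BRCA2, had a log2 difference of 0.28 (SE 0.15, adjusted p = 0.159), which came to 0.13 without shCtrl replicate 2.

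RAD51B, RAD51C, RAD51D, XRCC2 and XRCC3 work together in complexes at resected DNA, and 1 of them rose and 1 fell. XRCC2 (chr7:152644779-152676165, minus strand) measured 3.76, 2.37 and 3.39 FPKM in shCtrl and 4.68, 4.84 and 5.04 FPKM in shNAT10. XRCC2 rose by 0.62 on the log2 scale (SE 0.17, adjusted p = 0.0228), and by 0.43 without shCtrl replicate 2 (adjusted p = 0.00541). Its adjusted p was 0.0625, 0.0688 and 0.0772 without shNAT10 replicates 1, 2 and 3. RAD51C (chr17:58692573-58735611, plus strand) measured 4.52, 6.10 and 4.68 FPKM in shCtrl and 3.66, 3.44 and 3.27 FPKM in shNAT10. RAD51C fell by 0.54 on the log2 scale (SE 0.13, adjusted p = 0.0161). Without shCtrl replicate 2 it fell by 0.40 (adjusted p = 0.00819), and without shNAT10 replicates 2 and 3 its adjusted p was 0.0548 and 0.0617. The ratio of RAD51C to XRCC2 was 1.20, 2.57 and 1.38 in shCtrl and 0.78, 0.71 and 0.65 in shNAT10, with shCtrl replicate 2 far above the others. Each gene alone separated the groups, in opposite directions, so these ratios had to separate. RAD51B, RAD51D and XRCC3 had log2 differences of -0.22, -0.22 and -0.10 and did not pass (adjusted p = 0.251, 0.240 and 0.459), and XRCC3 came to -0.013 without shCtrl replicate 2. All shNAT10 values of RAD51B and RAD51D nevertheless lay below all shCtrl values. Of the exon bases of XRCC3, 76.7% lie opposite exons of KLC1 on the other strand, and 8.9% of those of RAD51D are shared with a read-through gene on its own strand.

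RAD54L (chr1:46247688-46278473, plus strand), a motor protein of strand exchange, had groups that did not overlap. It measured 5.34, 5.79 and 5.96 FPKM in shCtrl and 9.65, 9.57 and 9.74 FPKM in shNAT10. RAD54L rose by 0.75 on the log2 scale (SE 0.07, adjusted p = 4.38e-04), and by 0.76 without shCtrl replicate 2. Exons of LRRC41 lie opposite 25.1% of its exon bases. RAD52, an annealing protein, had a log2 difference of 0.33 (SE 0.13) with groups that did not overlap, and did not pass (adjusted p = 0.0686). RAD54B, a relative of RAD54L, was the lowest gene tested at 1.05 FPKM, with a log2 difference of -0.04 (SE 0.26, adjusted p = 0.910), which came to -0.30 without shCtrl replicate 2. RAD54B shares 59.1% of its exon bases with FSBP on the same strand, so its reads are uncertain.

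End resection held 1 of the 3 falls. BLM (chr15:90717327-90816165, plus strand), the helicase lost in Bloom syndrome, measured 8.05, 6.45 and 7.16 FPKM in shCtrl and 5.57, 5.05 and 5.86 FPKM in shNAT10. BLM fell by 0.38 on the log2 scale (SE 0.11, adjusted p = 0.0258), and by 0.46 without shCtrl replicate 2 (adjusted p = 0.00498). Leaving out any other library took its adjusted p to between 0.0502 and 0.0960. The nuclease EXO1 measured 11.6, 10.1 and 10.8 FPKM in shCtrl and 9.77, 9.57 and 9.999 FPKM in shNAT10. Its log2 difference of -0.14 (SE 0.08) did not pass (adjusted p = 0.171), and did without shCtrl replicate 2 (-0.19, adjusted p = 0.0357). NBN, which recruits ATM to breaks, had -0.15 (SE 0.13, adjusted p = 0.404) with all libraries and -0.28 (adjusted p = 0.0352) without shCtrl replicate 2. DNA2, the second resection nuclease, had a log2 difference of 0.01 (SE 0.12, adjusted p = 0.964), which turned to -0.12 without shCtrl replicate 2. RAD50, which ties broken ends together with NBN, was below the filter of 1 FPKM in 3 libraries, with 0.986, 0.333 and 0.619 FPKM in shCtrl and 0.859, 0.910 and 0.919 FPKM in shNAT10. On the same strand, 79.7% of its exon bases are shared with another annotated gene, AC116366.3, so its level is uncertain.

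The Fanconi core complex, the ubiquitin ligase of the pathway, held 1 of the 8 rises. FANCL (chr2:58159243-58241372, minus strand), its catalytic subunit, measured 18.6, 20.05 and 21.3 FPKM in shCtrl and 23.1, 24.6 and 23.7 FPKM in shNAT10. FANCL rose by 0.25 on the log2 scale (SE 0.07, adjusted p = 0.0312). Its adjusted p was 0.0636 without shCtrl replicate 1, and 0.0743, 0.121 and 0.0967 without shNAT10 replicates 1, 2 and 3. The other 7 subunits did not pass, with log2 differences of 0.28 for FANCB, 0.23 for FANCF, 0.19 for FANCE, 0.16 for FANCA, 0.10 for FANCG, 0.04 for FANCM and -0.05 for FANCC. Their adjusted p-values lay between 0.215 and 0.855. FANCG, at 17.7 FPKM over all libraries, passed only without shCtrl replicate 2 among the libraries left out (log2 difference 0.15, adjusted p = 0.0499). Without that library FANCM turned to -0.11, and FANCB and FANCE came to 0.035 and 0.34. FANCB measured 2.61, 1.38 and 2.13 FPKM in shCtrl and 2.35, 2.24 and 2.69 FPKM in shNAT10, a spread between control libraries wider than the difference of the means.

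Of the checkpoint kinases, CHEK1 rose and CHEK2 fell. CHEK1 (chr11:125625136-125676255, plus strand), the kinase that ATR activates, measured 15.1, 14.8 and 15.4 FPKM in shCtrl and 18.4, 19.6 and 19.9 FPKM in shNAT10. CHEK1 rose by 0.35 on the log2 scale (SE 0.07, adjusted p = 0.00532). CHEK2 (chr22:28687743-28742422, minus strand), the kinase that ATM activates, measured 8.08, 9.96 and 9.75 FPKM in shCtrl and 6.34, 7.11 and 6.43 FPKM in shNAT10. CHEK2 fell by 0.47 on the log2 scale (SE 0.10, adjusted p = 0.0105). Both calls held with each library left out in turn, CHEK2 with an adjusted p of at most 0.0469. CHEK1 over CHEK2 was 1.87, 1.48 and 1.58 in shCtrl and 2.91, 2.75 and 3.10 in shNAT10. All shNAT10 values of CHEK1 lay above and all of CHEK2 below those of shCtrl. These groups of ratios therefore could not overlap, and the ratio adds nothing to the 2 calls.

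ATM and ATR themselves overlapped between groups. ATM measured 15.7, 15.8 and 18.4 FPKM in shNAT10 and had a log2 difference of 0.31 (SE 0.24, adjusted p = 0.331), which came to 0.02 without shCtrl replicate 2. ATR had a log2 difference of 0.10 (SE 0.19, adjusted p = 0.701), and of -0.12 without that library. ATRIP, the partner that brings ATR to single-stranded DNA, was listed at 0 to 0.0567 FPKM, with at most 5 recovered reads in a library. It shares 27.9% of its exon bases with TREX1 on the same strand, and TREX1 was itself listed at 0 in every library.

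**Figure D3:**
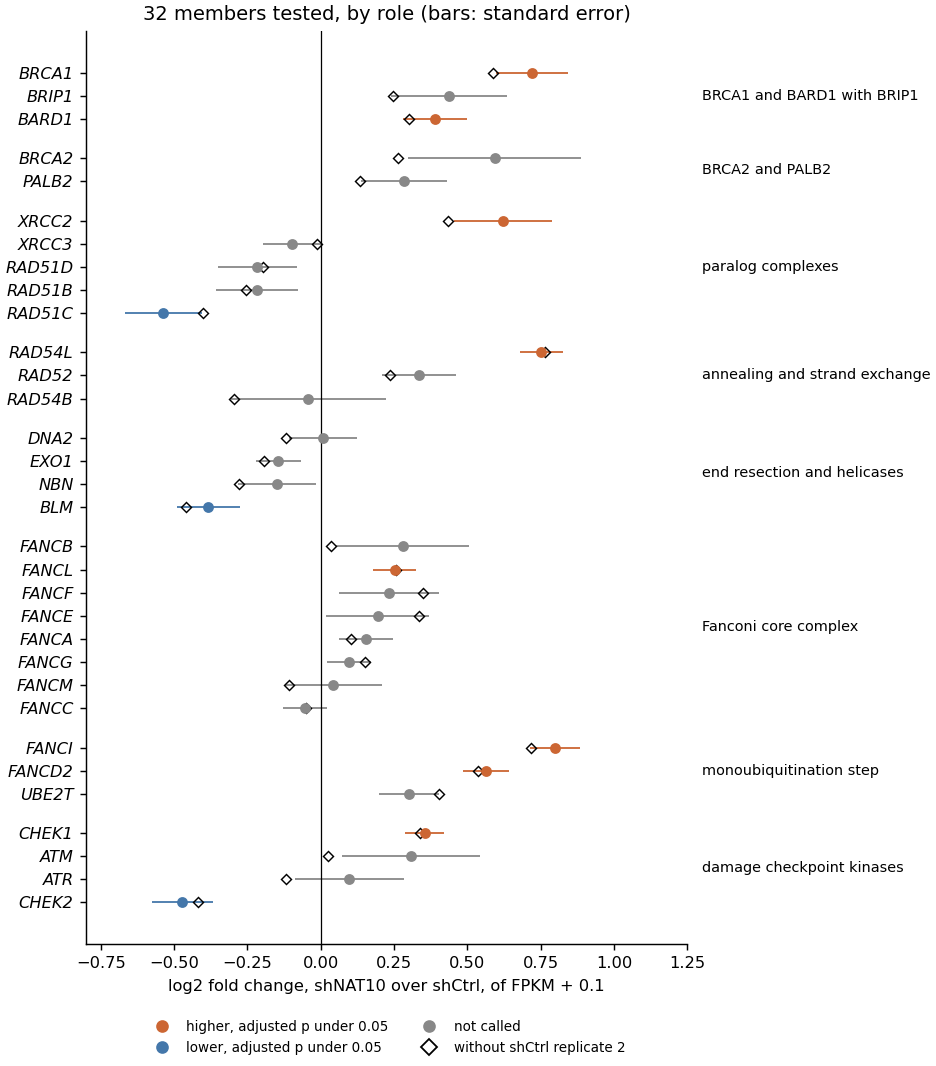
log2 fold change of shNAT10 over shCtrl on FPKM plus 0.1 for the 32 tested genes by role, with bars for the standard error, colours for the call and open diamonds for the same value without shCtrl replicate 2. FANCI, RAD54L and BRCA1 lie farthest right and RAD51C farthest left, and the diamonds of BRCA2, ATM and FANCB lie nearer to 0 than their points.

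The starts of these genes were searched for the E2F site, the element through which S phase genes are switched on, as a description of the list. The window ran from 250 bases before to 50 bases after each start in RefSeq (GRCh38.p14), and the letters searched on both strands were TTTCCCGC, TTTCGCGC, TTTGCCGC and TTTGGCGC. Of the 30 genes of the list with a RefSeq window, 5 held a match (FANCD2, XRCC2, EXO1, FANCA and FANCC), or 16.7%, against 6.92% of 9133 tested genes and 3.99% of all 27305 genes with a window. Of the 7 genes that rose and have a window, 2 held a match, and of the 3 that fell none did. A CCAAT box (CCAAT) stood in 14 of the 30 genes, against 43.6% of tested genes, and a CHR element (TTTGAA or TTCGAA) in 4 of the 30, against 14.9%. The matches near the start of FANCD2 and XRCC2, which rose, and of EXO1 and FANCC, which did not pass, are shown from 60 bases before the start, with the match in capitals.
FANCD2, plus strand, chr3:10026377-10026442: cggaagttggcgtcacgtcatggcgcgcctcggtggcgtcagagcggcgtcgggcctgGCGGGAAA
XRCC2, minus strand, chr7:152676113-152676201: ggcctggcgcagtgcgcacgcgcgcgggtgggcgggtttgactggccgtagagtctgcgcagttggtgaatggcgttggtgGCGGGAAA
EXO1, plus strand, chr1:241848144-241848215: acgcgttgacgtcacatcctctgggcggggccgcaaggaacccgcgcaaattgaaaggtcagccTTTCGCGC
FANCC, minus strand, chr9:95317710-95317769: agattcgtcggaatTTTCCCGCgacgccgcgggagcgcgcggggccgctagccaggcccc

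A match in FANCD2 straddled the start, those of XRCC2 and EXO1 lay behind it, and FANCC held a second match from -172 to -165 relative to it. These are letter matches and not measured sites.

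Genes of the same pathways outside the list were counted from hand-made lists. Of 46 tested other homologous recombination and Fanconi genes, 15 rose and 5 fell, and 26 did not pass, where 20.8% of all genes tested rose and 21.2% fell. As for the lists that follow, whether these shares differ from that background was not tested. FAAP100, a partner of the core complex, fell from 34.6 FPKM ± 3.50 to 17.1 FPKM ± 0.717 (SD, n = 3), by 1.01 on the log2 scale (adjusted p = 2.85e-04). WDR48, which helps to take ubiquitin off FANCD2, fell by 1.01 (adjusted p = 5.04e-04), SWSAP1 fell by 1.04 (adjusted p = 0.00725), and ABRAXAS1, a scaffold of a BRCA1 complex, rose by 0.64 (adjusted p = 0.00690).

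Among 16 other damage checkpoint genes, 6 rose, 4 fell and 6 did not pass. H2AX, the histone variant that marks breaks, fell by 1.29 on the log2 scale (adjusted p = 6.42e-04). MDC1, which binds that mark, rose by 0.89 (adjusted p = 9.12e-04), the phosphatase CDC25A rose by 0.86 (adjusted p = 2.64e-04), and ETAA1, an activator of ATR, rose by 0.77 (adjusted p = 5.78e-04). Of 9 tested genes of non-homologous end joining, the competing repair route, 2 rose, 1 fell and 6 did not pass. XRCC4 rose by 1.31 (adjusted p = 2.29e-04), POLL rose by 0.42 (adjusted p = 0.0131) and PAXX fell by 0.68 (adjusted p = 0.00569).

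Of 20 S phase and proliferation genes in a hand-made list, 10 rose, 2 fell and 8 did not pass, where 20.8% of all genes tested rose and 21.2% fell. Their median log2 difference was 0.20, beside -0.01 over all genes tested. E2F1 rose by 0.90 on the log2 scale (adjusted p = 9.14e-04) and MKI67 by 0.60 (adjusted p = 0.0387). Without shCtrl replicate 2 the rises were 1.00 for E2F1 and 0.39 for MKI67. RRM2 fell by 1.20 (adjusted p = 1.67e-04) and CCNE2 by 1.18 (adjusted p = 9.89e-04). The summed level of the 20 genes ran from 830 to 873 FPKM in shCtrl and from 1042 to 1059 FPKM in shNAT10. Their part in the repair gene differences was not tested. Among the 7 ductal markers 4 fell, KRT8 by 1.18 (adjusted p = 3.61e-04), and 2 rose, EPCAM by 2.20 (adjusted p = 6.9e-05).

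acRIP peaks lay on 17 of the 34 genes and were different in each list. In shCtrl 21 peaks were listed on 11 of them, and in shNAT10 20 peaks on 12, with 6 genes in both. With 1 list per group there is no replicate to test against, and fold enrichment of IP over input is on a scale of its own in each list. A peak was listed for 32.4% of the 34 genes in shCtrl and 35.3% in shNAT10, below the 49.6% and 47.7% of all genes tested. At a mean level of 5 to 20 FPKM, 6 of 16 genes of the list had a peak in shCtrl and 6 in shNAT10, where 57.4% and 55.5% of protein-coding genes did. At 1 to 5 FPKM, 4 of 13 had a peak in shCtrl and 6 in shNAT10, where 38.6% and 37.1% of protein-coding genes did. With all peaks, the share in shNAT10 lay above the background there. With the 50% of peaks of the highest fold enrichment it was 30.8% against 31.2%. With the 50% of peaks of the lowest p-values it was 15.4% against 22.5%. NAT10 itself had 3 peaks in shCtrl and 0 in shNAT10.

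No peak of the list was shared between the groups. None of the 21 shCtrl peaks overlapped a shNAT10 peak by 1 base, where 25.6% of all shCtrl peaks did, and none of the 20 shNAT10 peaks overlapped a shCtrl peak, where 27.4% of all did. Among genes at 1 to 20 FPKM, the shares were 20.5% and 22.1%. This held for the 6 genes with a peak in both lists, RAD54B, EXO1, FANCB, FANCM, FANCD2 and ATR. Their 8 shCtrl and 7 shNAT10 peaks lay on other stretches of the mRNA. Over all genes with a peak in both lists, 34.3% of shCtrl and 36.1% of shNAT10 peaks were shared. Peaks on other genes could hardly overlap, since 4315 of the 4321 shared shCtrl peaks lay on genes in both lists. So only these 8 and 7 peaks bear on the overlap, and their difference from the background was not tested.

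Genes with peaks in shCtrl alone were NBN (4 peaks), FANCI (3), BLM (2), FANCC (2) and FANCE (2). The highest fold enrichment among them was 580 on FANCC, in its 3′ UTR, followed by 407 on BLM and 303 on FANCE in the CDS. The FANCI peaks ran from 13.6 to 134 and those of NBN from 2.6 to 58.7. Genes with peaks in shNAT10 alone were ATM (7 peaks), FANCA (2), BARD1, XRCC2, XRCC3 and FANCF (1 each). ATM, with the longest transcript of the list, had peaks from 12.4 to 272 in fold enrichment, 6 in the CDS and 1 in the 3′ UTR, and was listed with none in shCtrl. FANCA carried the highest enrichment of the list at 1500, and FANCF 682 in its 3′ UTR. XRCC3 had 132 and XRCC2 34.6, both in the 3′ UTR, and BARD1 had 54.6 in the CDS. Among genes in both lists, FANCB had 742 in shCtrl and 85.9 in shNAT10, and ATR had 3 peaks from 29.3 to 188 in shCtrl and 1 at 180 in shNAT10. FANCM had 161 in shCtrl and 45.2 and 355 in shNAT10, and RAD54B had 56.4 and 15.5. By the midpoint, 32 of the 41 peaks lay in the CDS, 7 in the 3′ UTR, none in the 5′ UTR and 2 off the longest coding transcript. Of the 11 genes whose expression passed, FANCI and BLM had peaks in shCtrl alone, BARD1 and XRCC2 in shNAT10 alone, FANCD2 in both, and BRCA1, RAD54L, RAD51C, CHEK1, CHEK2 and FANCL in neither.

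**Figure D4:**
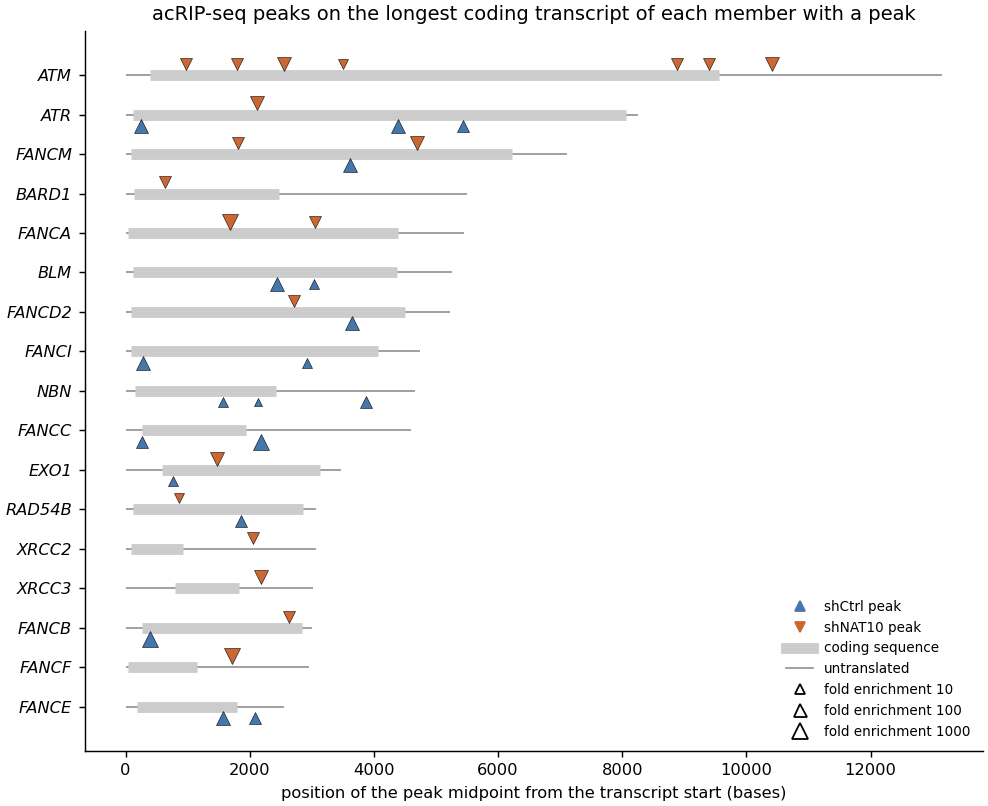
Midpoints of acRIP peaks along the longest coding transcript of the 17 genes with a peak, in bases from the transcript start, with shCtrl peaks below and shNAT10 peaks above the transcript, the coding sequence as a thick bar and the symbol size rising with the logarithm of fold enrichment. No shCtrl peak shares bases with a shNAT10 peak, and the 7 ATM peaks are all from shNAT10. The 2 peaks off the longest coding transcript, on NBN and FANCI, are not drawn.

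Sequences of coding peaks are shown for the pairs of EXO1 and FANCD2, since they show how far apart the lists lie on 1 mRNA, and for BLM, BARD1 and FANCA, which had peaks in a single list. The choice was made after values were seen, because no peak was shared. The bases are those of the spliced GENCODE v29 transcript, and capitals mark stretches in which C is followed by any 2 bases (CNN) 4 times in a row, the motif tied to ac4C. EXO1 codons 11 to 101 (shCtrl, fold enrichment 15.6) and 251 to 341 (shNAT10, 266), FANCD2 codons 1139 to 1229 (shCtrl, 168) and the central 300 of 330 bases of codons 820 to 929 (shNAT10, 30.8), BLM codons 737 to 816 (shCtrl, 407), BARD1 codons 133 to 203 (shNAT10, 54.6) and FANCA codons 515 to 585 (shNAT10, 1500) follow in this order.
EXO1 shCtrl, chr1:241850457-241853378: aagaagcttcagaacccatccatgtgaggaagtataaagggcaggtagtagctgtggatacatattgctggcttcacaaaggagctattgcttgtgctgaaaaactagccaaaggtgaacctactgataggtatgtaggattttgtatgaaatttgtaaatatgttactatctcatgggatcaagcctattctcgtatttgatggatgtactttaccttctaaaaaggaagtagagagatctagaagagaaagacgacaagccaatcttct
EXO1 shNAT10, chr1:241858715-241861484: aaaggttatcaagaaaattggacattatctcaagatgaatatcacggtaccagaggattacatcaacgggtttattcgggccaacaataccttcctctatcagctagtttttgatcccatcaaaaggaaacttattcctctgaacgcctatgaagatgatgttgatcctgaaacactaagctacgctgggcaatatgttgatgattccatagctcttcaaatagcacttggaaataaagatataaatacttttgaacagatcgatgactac
FANCD2 shCtrl, chr3:10087214-10090293: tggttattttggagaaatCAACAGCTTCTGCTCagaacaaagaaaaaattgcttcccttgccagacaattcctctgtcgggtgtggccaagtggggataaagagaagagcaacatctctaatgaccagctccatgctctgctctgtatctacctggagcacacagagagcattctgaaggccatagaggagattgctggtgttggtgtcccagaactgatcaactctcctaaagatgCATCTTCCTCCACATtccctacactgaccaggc
FANCD2 shNAT10, chr3:10067281-10074601: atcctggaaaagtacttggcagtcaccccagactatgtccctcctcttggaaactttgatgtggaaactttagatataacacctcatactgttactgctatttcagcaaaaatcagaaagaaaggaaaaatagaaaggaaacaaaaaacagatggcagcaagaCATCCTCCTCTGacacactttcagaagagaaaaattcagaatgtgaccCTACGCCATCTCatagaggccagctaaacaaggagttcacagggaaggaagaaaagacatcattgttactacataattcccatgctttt
BLM shCtrl, chr15:90766925-90769479: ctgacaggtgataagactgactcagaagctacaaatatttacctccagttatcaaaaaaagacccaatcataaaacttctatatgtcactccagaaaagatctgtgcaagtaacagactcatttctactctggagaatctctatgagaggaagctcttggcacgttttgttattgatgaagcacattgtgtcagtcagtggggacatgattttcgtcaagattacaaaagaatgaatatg
BARD1 shNAT10, chr2:214781266-214781475, minus strand: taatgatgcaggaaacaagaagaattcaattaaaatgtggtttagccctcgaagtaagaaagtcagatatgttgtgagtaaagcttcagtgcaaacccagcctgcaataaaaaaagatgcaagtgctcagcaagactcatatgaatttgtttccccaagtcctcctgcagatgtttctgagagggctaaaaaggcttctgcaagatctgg
FANCA shNAT10, chr16:89778964-89783028, minus strand: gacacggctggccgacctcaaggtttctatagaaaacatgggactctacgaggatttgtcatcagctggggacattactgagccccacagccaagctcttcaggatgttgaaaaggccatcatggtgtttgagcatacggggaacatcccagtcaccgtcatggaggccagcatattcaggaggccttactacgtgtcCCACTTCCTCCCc

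Both FANCD2 peaks and the FANCA peak held such a stretch, while those of EXO1, BLM and BARD1 held none. Over all coding peaks of the list that lie wholly in the CDS and off chromosome 8, 2 of 7 shCtrl and 3 of 13 shNAT10 peaks held it, against 33.1% of 420 tiles of 240 bases over the coding sequences of the 34 genes. The peaks ran from 181 to 361 bases, so their lengths differ from those of the tiles. The tiles include NBN and RAD54B on chromosome 8, while a wholly coding peak of NBN in shCtrl and of RAD54B in shNAT10 were left out. The 2 sides of this comparison thus cover different genes.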

How the data were processed

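RNA-seq of PANC-1 cells with a control shRNA vector (shCtrl) or a NAT10 shRNA (shNAT10) comprised 3 libraries in each group. The acRIP-seq comprised, in each group, 3 IP libraries with their 3 inputs. Groups were taken from the sample labels. The authors deposited FPKM for 58302 Ensembl genes. The submitters' processing notes name HISAT2 2, HTSeq 0.11.0, DESeq2 1.22.2 and hg38, with no role or order. The authors also deposited a list of acRIP peaks for either group, where each peak has an enrichment ratio (IP over input) and a p-value. The peak caller is not given in the sources used here.

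Annotation came from GENCODE v29 (GRCh38). The FPKM values fit the length of the longest transcript: with it, 96.8% to 97.2% of values above 0 lay within 0.05 of a whole read. The library kit is stranded, but the strand setting of counting is not given in the sources used here.

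The difference shNAT10 minus shCtrl was fitted on log2(FPKM + 0.1) by limma 3.58.1 (R 4.3.3) with a mean-variance trend. The 12982 genes that reached 1 FPKM in 3 or more libraries were tested, and p-values were adjusted over all of them by Benjamini-Hochberg. Fold changes on this scale understate those of low genes. Tests of single values and ratios were exact two-sided permutation tests. Peaks of the 2 lists overlapped when any base on one strand was common to them. The midpoint of a peak gave its place on the longest coding transcript. The fit was tested on simulated data. Python 3.11.15 with pandas 2.3.3, NumPy 2.4.6, SciPy 1.17.1 and matplotlib 3.10.9 was used.

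The 34 genes, the roles and the other gene lists were chosen with earlier results of these data known. Genes of the list that passed are given with every library, the others by role, and of other lists at most 4 genes with the largest change. Alternatives were another pseudocount, filter, scaling, block, trend, length and GC correction, voom on recovered reads, each library left out, stricter peaks, reciprocal overlap and another transcript. The combined correction and block was added after seeing the data. An edgeR fit on recovered reads was not run. A single gene is not reported here.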

Additional observations from a re-analysis of the deposited data

How the results depend on the processing

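Counts of called genes of the list moved with single libraries, the length and GC correction and the filter. Leaving out each library in turn, between 1 and 5 genes were lower and between 5 and 10 higher, with 5 lower and 10 higher without shCtrl replicate 2 and 5 higher without any 1 of the shNAT10 libraries. Correcting length and GC content gave 5 lower and 10 higher, and 5 lower and 12 higher when the replicate block, added after seeing the data, was put in with it. Without a filter 2 were lower and 5 higher. Calls over all genes moved as well. The main fit called 2751 lower and 2699 higher of 12982. Without shCtrl replicate 2 these were 3318 and 3303, and without a shNAT10 library 1765 to 1897 and 1774 to 1829. The correction called 3372 lower and 3487 higher of 12952, and with the block 3245 and 3374. Without a filter 2330 were lower and 2241 higher of 29695. For the list, the replicate number as a block gave 3 lower and 8 higher, the main counts. BARD1 then lost its call and UBE2T gained one. Deviations of same-numbered libraries correlated at -0.04, 0.06 and 0.11, and those of differently numbered libraries at -0.12 to 0.06. With 3 libraries per group, these values cannot tell whether same-numbered libraries shared a culture or batch. NAT10 kept its call under every alternative run. FANCI, RAD54L, BRCA1, FANCD2, CHEK1 and CHEK2 kept their calls under all 17. Called genes kept their direction throughout.

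Directions turned only for genes that did not pass. XRCC3 had 0.0085 with TPM and 0.065 with the length and GC correction, with or without the block, RAD54B had 0.062 and FANCC 0.053 with TPM, and with that correction DNA2 had -0.072, FANCM -0.13 and ATR -0.10. Leaving out libraries gave -0.30 to 0.12 for RAD54B, -0.12 to 0.073 for DNA2, -0.11 to 0.14 for FANCM and -0.12 to 0.26 for ATR. The causes were not tested. With the 50% of peaks of the lowest p-values, 5 genes had a peak in shCtrl and 7 in shNAT10, and no peak was shared under any alternative run. The planned edgeR fit on recovered reads was not run. Peak lists hold no reads, so the depth behind a peak is unknown, and ATRIP with at most 5 recovered reads in a library is too shallow for any comparison.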
